A study of Homo sapiens with 6 samples.

Results

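The genes described here are 34 targets and feedback partners of p53, read as RNA levels in 3 lines of Burkitt lymphoma. The members were listed by name, and the probe sets whose annotation carries a member's symbol, current or former, as the only gene were taken. For 31 of the 34 such a probe set was found, 80 probe sets in all out of 54675 on the array, and 1 probe set stood for each gene, the one with the highest 6-array mean. BBC3, BTG2 and FDXR were not analysed here, and neither was the gene that encodes p53. Of the 31, 27 had a mean at or above the level minimum of 4.42, which is the median over probe sets other than controls on the log2 intensity scale, and were tested among 12012 genes.

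The miR26a group held 1 array each of Raji, Namalwa and Ramos cells that carry an inducible miR26a construct, and the empty group held 1 array of each line labelled empty. Doxycycline at 0.5 µg/ml for 72 h, which switches the microRNA on, is listed for the samples of both groups alike. All are established B-lymphoma lines grown in culture, and no source used here says whether a line is 1 clone or how many cultures an array represents. The p-values therefore measure the spread between these samples, and the number of arrays limits the precision.

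p53 is a transcription factor that is stabilised after DNA damage and other stress. It switches on genes that halt the cell cycle, repair DNA, change metabolism or kill the cell, together with genes that shut p53 itself down again. In Burkitt lymphoma, where MYC is overactive, loss of this response is a common event, and Raji, Namalwa and Ramos are known as lines with mutant p53. Several target genes also respond to other factors, so an RNA level of a target is no measure of p53 activity.

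The microRNA is shown because it is the agent that separates the groups. Its mature sequence from RefSeq (GRCh38.p14) is the same at both genes, MIR26A1 at chr3:37969413-37969434 on the plus strand and MIR26A2 at chr12:57824658-57824679 on the minus strand, with the seed, bases 2 to 8, in capitals.
hsa-miR-26a-5p: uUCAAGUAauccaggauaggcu

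Promoters were read for the p53 response element, a pair of 10-base units with 0 to 13 bases between them, because it is the site that defines this gene group. The window ran from 250 bases before to 50 bases after each RefSeq start (GRCh38.p14), and a match allowed up to 2 mismatches with the C and G of each unit's core kept. The element reads the same on both strands, so 1 strand was searched, and overlapping matches were allowed. Of 26 members with a window (36 windows), 4 held a match, which is 15.4%, against 3.62% of 27305 genes. Because the members were listed as p53 targets, these shares describe the list and are no test of it. FDXR, which is not measured here, was among the 4. For each of the other three the match with fewest mismatches is shown, with the units in capitals. DDB2's has 0 mismatches, and 2 further DDB2 matches that overlap it, each with 1 mismatch, are not shown.
DDB2: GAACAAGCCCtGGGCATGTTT
MDM2: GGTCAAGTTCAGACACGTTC
AEN: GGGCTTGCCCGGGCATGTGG
The DDB2 match lies at chr11:47214979-47214999, within the gene and 5 to 25 bases after one of its starts. The MDM2 match lies at chr12:68808923-68808942, inside the gene and 94 to 75 bases before a further start, and the AEN match at chr15:88621306-88621325, 34 to 15 bases before a start. All are on the plus strand, and exon and intron limits were not used here. A match is a run of letters and no evidence of binding in these cells.

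Array medians lay between 4.36 and 4.44. All 7 measured B-cell markers and all 4 of the germinal centre were above the level minimum on every array, while 1 of 6 markers of T and NK cells and 0 of 4 of monocytes were. The T and NK list averaged 3.77 to 4.17 and the monocyte list 3.47 to 3.93 over the arrays. Of red-cell markers 1 of 2 and of fibroblast markers 1 of 4 were above it on every array, with list means of 4.40 to 5.24 and 4.73 to 5.19. The Namalwa empty array stood apart: the 3′ control probe set of ACTB exceeded the 5′ one by 3.58 log2 there, and by 1.80 to 1.98 on the remaining 5 arrays, a measure of RNA quality. With bulk RNA, fewer cells that express a gene and less RNA per cell cannot be told apart.

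The first comparison asks which of these RNAs differ when miR-26a is induced. A small set of p53 targets was higher in the miR26a array of each line: ZMAT3, TP53I3 and SESN1 by 0.38 to 0.48 log2 on average, and BAX and EDA2R by 0.27 and 0.20. PLK3, PMAIP1 and DDB2 were lower in each line, with mean changes of -0.39, -0.31 and -0.25. None of the 27 passed over all genes with limma, the smallest adjusted p being 0.111, and percent called over all 12012 genes was 0.00 as well. At an unadjusted p under 0.05 there were 7 of 27, 4 higher and 3 lower, against 12.9% of all genes, 5.56% higher and 7.33% lower. In direction, 10 of 27 were higher in all 3 lines, against 15.5% of all genes, and 4 were lower, against 19.6%. The list was named with earlier results of these data known, so these counts describe it and support no direction. The median change was 0.03 over the members and -0.01 over all genes tested.

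ZMAT3 encodes a zinc finger protein that binds RNA. Its log2 level was 8.92 in the miR26a array and 8.54 in the empty array of Raji, 8.53 and 8.02 in Namalwa, and 8.86 and 8.32 in Ramos. Every line was higher with miR26a, by 0.38, 0.51 and 0.54, although the Namalwa miR26a array was no higher than the Raji empty array. The mean change was 0.48 (SE 0.10, 95% interval 0.25 to 0.70, n = 3 pairs), a 1.39-fold difference with limma adjusted p = 0.111. ZMAT3 ranked 105 by p among 12012 genes. With an intensity trend and robust prior its limma adjusted p was 0.0461, the only setting of those tried in which a member passed, and over 13 settings it ran from 0.0461 to 1.

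TP53I3, a quinone oxidoreductase linked to oxidative stress, had log2 levels of 5.08 with miR26a and 4.95 with empty in Raji, 6.13 and 5.67 in Namalwa, and 5.45 and 4.83 in Ramos. SESN1, a leucine-sensing inhibitor of mTORC1, was at 7.21 and 6.79 in Raji, 7.56 and 7.22 in Namalwa, and 6.71 and 6.34 in Ramos. For SESN1 the 3 line changes were close, from 0.34 to 0.43, whereas for TP53I3 they ran from 0.13 in Raji to 0.62 in Ramos. The mean changes were 0.40 (SE 0.12) and 0.38 (SE 0.10), with limma adjusted p = 0.196 and 0.151. In both genes the lines differed more than the groups did, so the miR26a and empty levels overlap across lines.

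BAX, which opens pores in the outer mitochondrial membrane, was at 6.47 with miR26a and 6.44 with empty in Raji, 6.10 and 5.70 in Namalwa, and 6.58 and 6.20 in Ramos. Its change was 0.40 in Namalwa and 0.38 in Ramos but 0.03 in Raji (mean 0.27, limma adjusted p = 0.353). EDA2R, a receptor for ectodysplasin A2, was at 5.0 and 4.81 in Raji, 4.89 and 4.78 in Namalwa, and 4.69 and 4.38 in Ramos. All EDA2R values were near the level minimum of 4.42, and the Ramos empty array lay below it.

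On the lower side, PLK3, a stress-activated polo-like kinase, was at 5.45 with miR26a and 5.64 with empty in Raji, 4.96 and 5.34 in Namalwa, and 5.53 and 6.13 in Ramos. The mean change was -0.39 (SE 0.11, limma adjusted p = 0.184). PMAIP1, the BH3-only death protein NOXA, was at 9.27 and 9.81 in Raji, 9.91 and 10.21 in Namalwa, and 10.41 and 10.49 in Ramos, with a mean of -0.31 (SE 0.12, limma adjusted p = 0.307). The change was -0.55 in Raji and -0.08 in Ramos. DDB2, which recognises ultraviolet damage, has the match with 0 mismatches shown above. It was at 7.29 and 7.69 in Raji, 5.19 and 5.43 in Namalwa, and 5.21 and 5.33 in Ramos (mean -0.25, SE 0.11, limma adjusted p = 0.349).

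**Figure D1:**
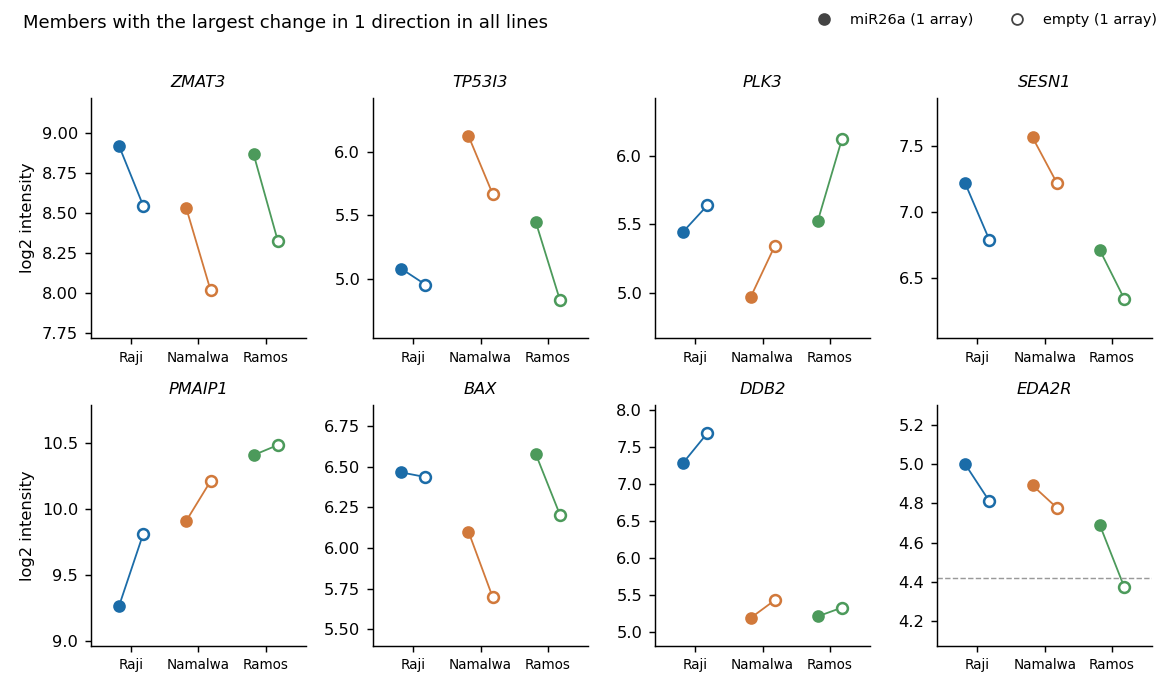
Log2 intensity of 8 members in each line, with the miR26a array as a filled point left of the empty array as an open point and a line joining the pair. The 8 are those with the largest mean change among members that move 1 way in Raji, Namalwa and Ramos; the dashed line in the EDA2R panel is the level minimum of 4.42, and each panel has its own scale.

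The death effectors did not move as 1 group. Of 10 tested, 7 had a positive mean change and 3 a negative one, with a median of 0.09. Among the death receptors for TRAIL, TNFRSF10B was at 0.20 (95% interval -0.04 to 0.43) and TNFRSF10A at -0.02 (-0.25 to 0.20). AEN, a nuclease that promotes apoptosis and has a match to the response element, was at -0.21 (-0.46 to 0.04). PHLDA3, which competes with AKT for membrane lipids, was at 0.10, and TRIAP1, which restrains caspase activation, at 0.08. PERP, a membrane protein of cell contacts, lay below the level minimum on all 6 arrays.

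The feedback genes, which switch p53 off, had 2 positive and 3 negative mean changes of 5. MDM2, the ubiquitin ligase that degrades p53, was at 7.85 with miR26a and 7.60 with empty in Raji, 8.28 and 8.66 in Namalwa, and 8.47 and 8.37 in Ramos. It was higher in Raji and Ramos and lower in Namalwa, and its mean change was -0.01 (95% interval -0.31 to 0.29). In Raji, Namalwa and Ramos its next probe set by level had the same signs, with 0.25, -0.02 and 0.12. The others above the level minimum did not, with 0.04, 0.09 and 0.62, with -0.02, 0.02 and 0.08, and with 0.20, -0.22 and -0.30. MDM4, the MDM2 relative that covers the activating part of p53, had the signs of the MDM2 probe set used, with 0.26 in Raji, -0.34 in Namalwa and 0.18 in Ramos. With Namalwa left out, the mean changes were 0.18 for MDM2 and 0.22 for MDM4. The Namalwa empty array is the one with the 3.58 ACTB gap, whose part in this was not tested. PPM1D, a phosphatase that reverses damage signalling, was at -0.13, CCNG1, cyclin G1, at 0.19 and FBXO22, a substrate receptor of a ubiquitin ligase, at -0.06.

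TP53INP1, a stress protein that promotes autophagy and cell death, and POLH, the polymerase that copies past ultraviolet damage, differed most between lines in the probe sets used. TP53INP1 was at 6.03 with miR26a and 5.54 with empty in Raji, 6.18 and 6.68 in Namalwa, and 6.55 and 6.30 in Ramos. POLH was at -0.04 in Raji, -0.72 in Namalwa and 0.25 in Ramos in the probe set used. Its other two above the level minimum did not have this pattern, with -0.12, 0.07 and -0.07 in one and -0.48, -0.48 and -0.09 in the other. Each line offers a single pair, which allows no test. Without Namalwa the mean changes were 0.37 and 0.10.

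Of the repair genes, POLH aside, DDB2 and ASCC3, a helicase that unwinds alkylated DNA, were lower in each line (-0.25 and -0.18). XPC, which finds distorted DNA, was at -0.02 and RRM2B, a subunit of ribonucleotide reductase, at 0.01. Among growth arrest genes, GADD45A, a damage-induced regulator of stress kinases, was at 0.15, the tetraspanin CD82 at 0.14 and RPS27L at -0.09. RPS27L is a close relative of the ribosomal protein RPS27, so its probes may share signal with it. TIGAR, a phosphatase that lowers glycolysis, was at 0.13. PLK2, SPATA18 and DRAM1 lay below the level minimum on all 6 arrays.

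**Figure D2:**
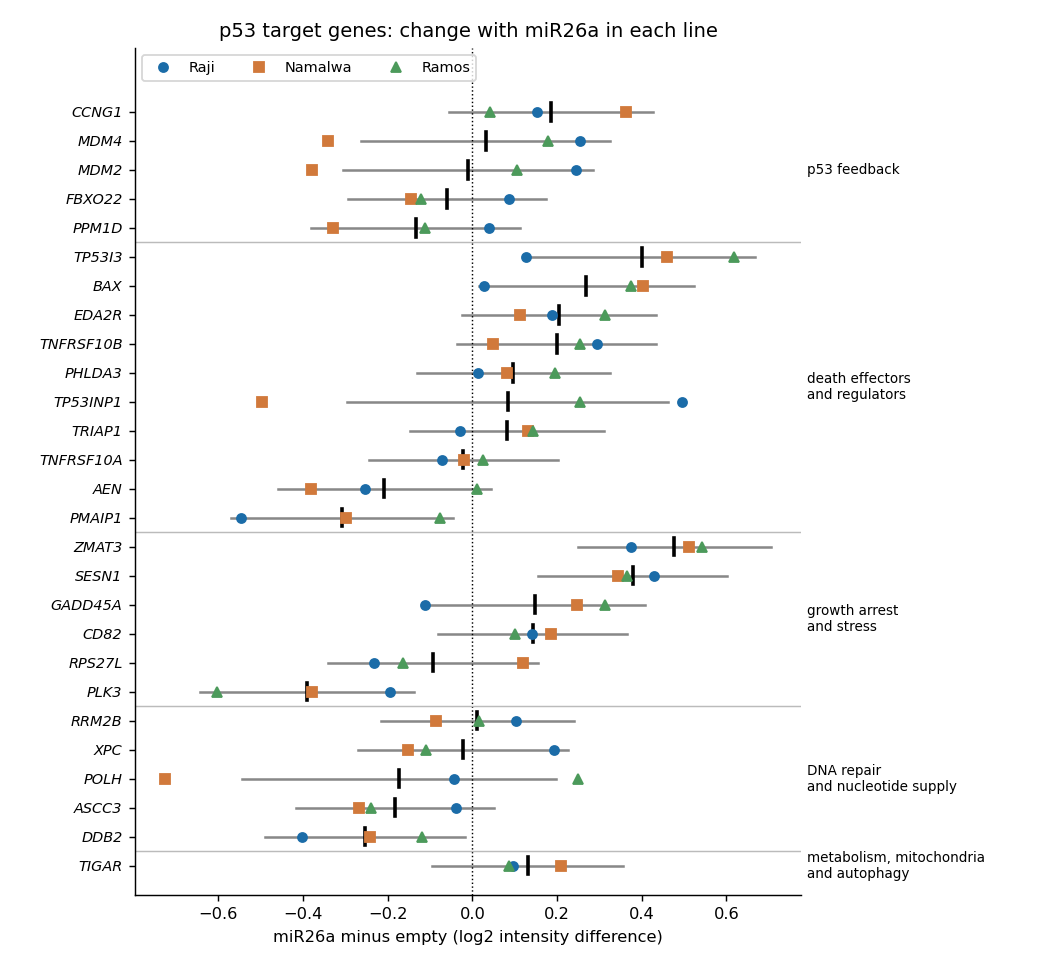
Change with miR26a (miR26a minus empty, log2 intensity) of the 27 tested members, grouped by role, with 1 point per line, a black bar at the mean and a grey line for limma's 95% interval. ZMAT3 and SESN1 keep all 3 points between 0.34 and 0.54, while TP53INP1 and POLH have Namalwa far to the left of Raji and Ramos.

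Over the members, 17 of 27 were higher with miR26a in Raji, 13 in Namalwa and 19 in Ramos, against 5613, 5718 and 5802 of all 12012 genes. The medians were 0.09, -0.02 and 0.10, against -0.02, -0.01 and -0.01 over all genes tested. A gene's other probe sets read other stretches of its RNA. Of the 27, 13 had another probe set above the level minimum, and in 7 of these all of them changed in the same direction as the chosen one. For ZMAT3 the other three at that level gave mean changes of 0.50, 0.41 and 0.19, the last with -0.11 in Namalwa. The second probe set of PMAIP1 gave -0.44 and was lower in each line. TNFRSF10B was split: the chosen probe set gave 0.20 and the other two above the minimum gave -0.37 and -0.23, lower in each line. Those 2 belong to a class of probe set that can bind several transcripts. The probe sets used for POLH and CD82 are of the same class, as are some MDM2 probe sets that were not used. For BAX the other probe set gave a mean of 0.06 with -0.29 in Raji, for PLK3 -0.16 with 0.00 in Namalwa, and for ASCC3 0.12, so that higher or lower in each line holds for these 3 genes in the probe set used alone. For MDM4, mean changes of the 4 probe sets above the minimum ran from -0.19 to 0.29.

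**Figure D3:**
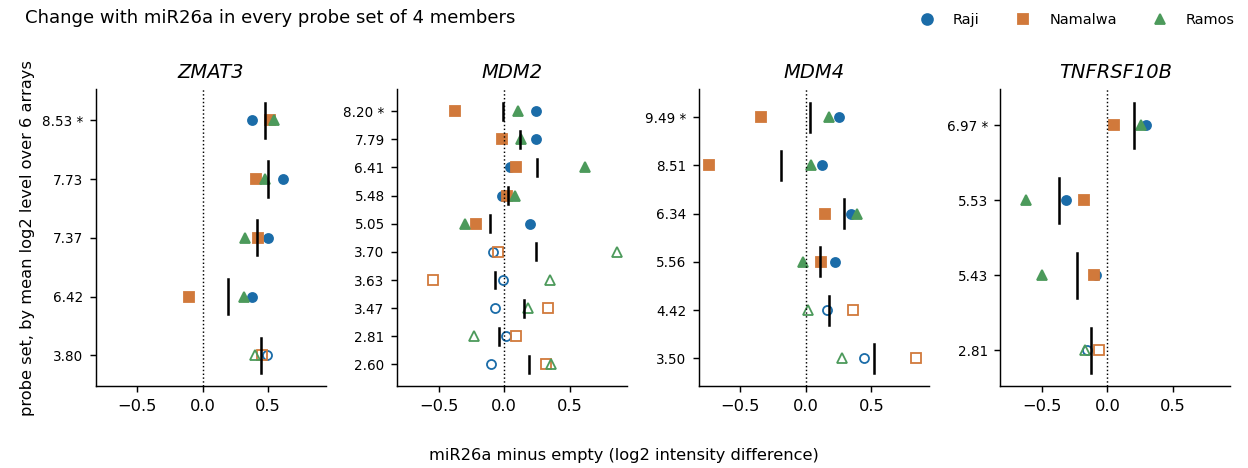
Change with miR26a (miR26a minus empty, log2 intensity) in every probe set of 4 members, ordered by mean log2 level over the 6 arrays; the asterisk marks the probe set used, symbols mark the line, open symbols a mean below the level minimum of 4.42, and black bars the mean. ZMAT3 is to the right of 0 in all of its probe sets on average, whereas the TNFRSF10B probe sets fall on both sides.

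Further genes of the pathway were taken from textbook lists, drawn up like the members with earlier results of these data known. Of 34 tested regulators and partners of p53, 0 passed, with 3 higher and 5 lower at an unadjusted p under 0.05 (23.5%, against 12.9% of all genes, 5.56% higher and 7.33% lower) and a median of -0.04. KMT5A, a histone H4 methyltransferase that also methylates p53, was at -0.48, of which -1.06 in Namalwa. TOPORS, a ligase for ubiquitin and SUMO, was at 0.42, and the checkpoint kinase CHEK1 at -0.38. Of 37 other target genes, 0 passed, with 6 higher and 4 lower at an unadjusted p under 0.05 (27.0%, against the same 12.9%) and a median of -0.01. BID, which links death receptors to mitochondria, was at -0.49, ANKRA2 at 0.45 and CDKN1A, which encodes the cell cycle inhibitor p21, at 0.47. CDKN1A was at 5.82 with miR26a and 5.31 with empty in Raji, 8.23 and 7.85 in Namalwa, and 8.18 and 7.65 in Ramos.

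The second set of comparisons asks how the lines differ in these genes. Some members differed between Raji and both other lines, in both directions. DDB2, CCNG1, TNFRSF10B, CD82, RPS27L, RRM2B and TIGAR were higher in Raji than in either of the other lines, by 2.04 to 4.52-fold over Namalwa. GADD45A was lower in Raji than in either, by 3.52-fold and 3.56-fold, and so were MDM4, MDM2, PPM1D, AEN, PMAIP1 and TP53INP1. Against Namalwa, 21 of 27 members passed with limma, 12 higher and 9 lower, where percent called over all genes was 46.1, or 22.8 higher and 23.4 lower. At 1 log2 or more there were 7 higher and 2 lower, where percent called was 14.0, or 5.99 higher and 8.03 lower. Against Ramos, 21 passed, 11 higher and 10 lower, where percent called was 50.5, or 26.1 higher and 24.4 lower. At 1 log2 or more there were 6 higher and 2 lower, where percent called was 15.6, or 6.88 higher and 8.67 lower. The 2 comparisons share the Raji arrays, and each line gave 1 miR26a and 1 empty array. The list was named with earlier results of these data known. These counts therefore describe the members and support no statement about p53 targets as a group.

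DDB2 had the widest gap of the members. Its 2 Raji arrays were at 7.29 and 7.69, against 5.19 and 5.43 in Namalwa and 5.21 and 5.33 in Ramos. The difference was 2.18 to Namalwa (95% interval 1.89 to 2.47, limma adjusted p = 8.81e-07) and 2.22 to Ramos (1.93 to 2.51, limma adjusted p = 7.00e-07). CCNG1 was at 11.72 and 11.56 in Raji, against 10.00 and 9.64 in Namalwa and 9.97 and 9.92 in Ramos. That made Raji higher by 1.82 and 1.69 (limma adjusted p = 3.69e-06 and 5.37e-06). In both genes every Raji array was above every array of the other lines.

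TNFRSF10B was at 8.22 and 7.93 in Raji, against 6.29 and 6.24 in Namalwa and 6.70 and 6.44 in Ramos. Raji was higher by 1.81 and 1.50, and all 3 probe sets above the level minimum had that direction, the other two with 0.86 to 1.07. Its partner TNFRSF10A did not pass, with differences of 0.01 (95% interval -0.26 to 0.29) and 0.10 (-0.17 to 0.38). Of these 2 TRAIL receptors only TNFRSF10B passed in Raji, and whether they differ from each other was not tested. The other TNFRSF10A probe sets above the level minimum were higher in Raji, by 0.61 and 0.12 against Namalwa and 0.30 and 0.29 against Ramos.

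CD82 was at 7.80 and 7.66 in Raji, against 6.34 and 6.16 in Namalwa and 6.15 and 6.05 in Ramos, and RPS27L at 10.22 and 10.45, against 9.10 and 8.98 and 8.89 and 9.05. RRM2B was at 7.67 and 7.57 in Raji, against 6.55 and 6.64 in Namalwa and 6.59 and 6.58 in Ramos. All 3 genes were higher in each Raji array than in any other array, with differences of 1.03 to 1.63. TIGAR was graded, with Raji highest (9.64 and 9.54), Namalwa lowest (8.03 and 7.82) and Ramos between (8.82 and 8.74). It was 1.67 higher in Raji than in Namalwa and 0.81 higher than in Ramos, and both passed (limma adjusted p = 4.11e-06 and 4.38e-04).

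GADD45A was the member most reduced in Raji, at 7.85 and 7.96, against 9.84 and 9.59 in Namalwa and 9.89 and 9.58 in Ramos. The differences were -1.81 and -1.83 (limma adjusted p = 6.15e-06 and 5.21e-06), and no Raji array overlapped the other lines. MDM4 was at 8.95 and 8.69 in Raji, against 9.78 and 10.12 in Namalwa and 9.77 and 9.59 in Ramos (differences -1.13 and -0.86). These MDM4 differences are those of 1 probe set: the other three above the level minimum gave -0.41, 0.31 and -0.22 against Namalwa and -0.09, -0.05 and 0.11 against Ramos. For MDM2 the differences were -0.74 and -0.69, and for PPM1D -0.76 and -0.96. With CCNG1 higher and FBXO22 at 0.08 and 0.29 without passing, the feedback genes were split between directions.

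**Figure D4:**
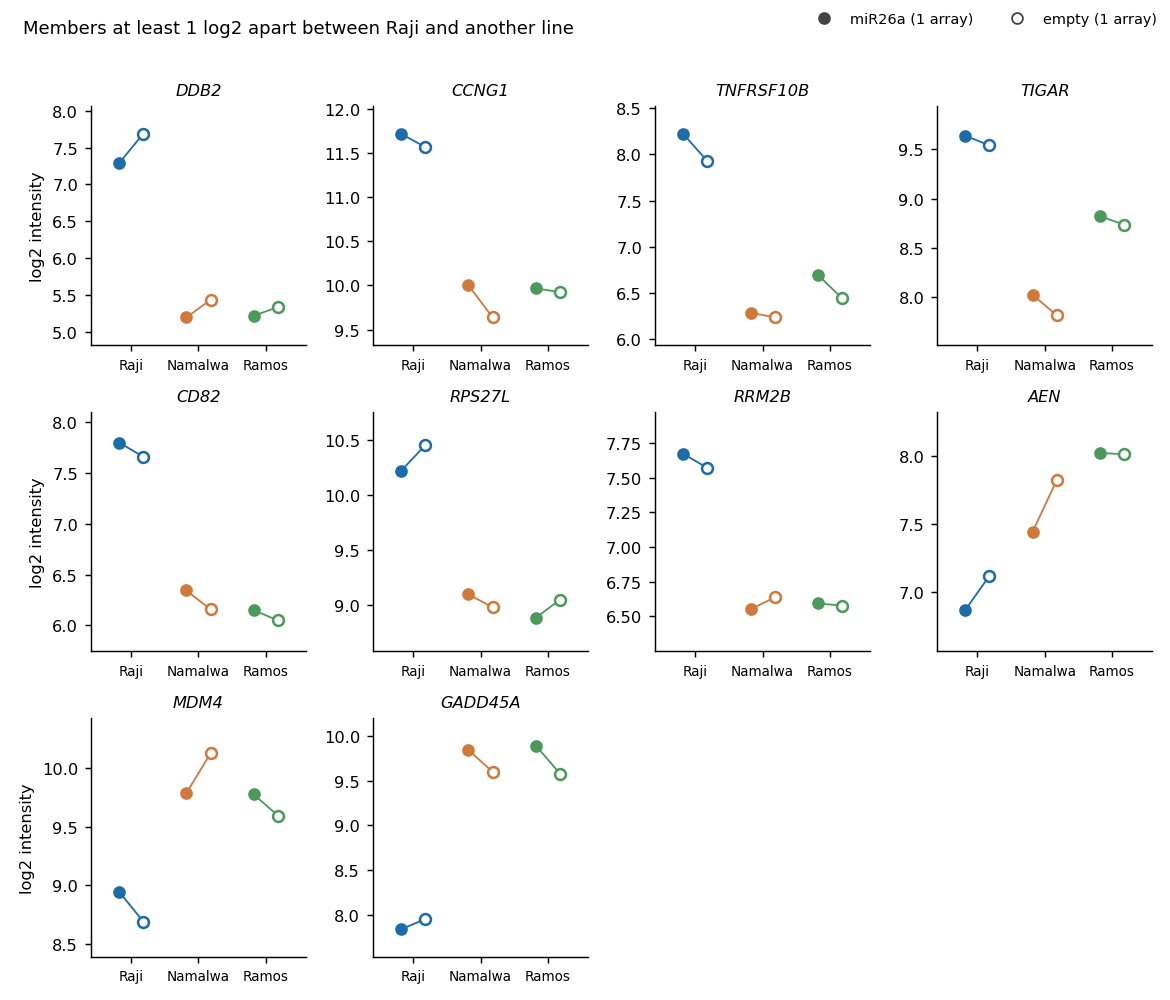
Log2 intensity of the 10 members that passed with a difference of at least 1 log2 between Raji and Namalwa or Raji and Ramos, in each line, with the miR26a array as a filled point left of the empty array as an open point. Both Raji points lie above or below all 4 points of the other lines in every panel, and each panel has its own scale.

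AEN was at 6.87 and 7.12 in Raji, against 7.44 and 7.82 in Namalwa and 8.02 and 8.01 in Ramos. The differences were -0.64 and -1.02 (limma adjusted p = 0.00390 and 1.98e-04). PMAIP1 had differences of -0.52 and -0.91 and TP53INP1 of -0.65 and -0.64. PHLDA3 and XPC were higher in Raji than in either line, by 0.40 and 0.46 for PHLDA3 and by 0.41 and 0.68 for XPC. In the probe sets used, the 3 genes with a printed match differed in direction in Raji, DDB2 higher and MDM2 and AEN lower. For MDM2 this depends on the probe set, as another above the level minimum gave 0.79 against Namalwa and 0.49 against Ramos.

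Some members set Raji apart from 1 line only or in opposite directions. SESN1 was lower in Raji than in Namalwa, at -0.39, and higher than in Ramos, at 0.47, and both passed (limma adjusted p = 0.0250 and 0.00931). BAX, ZMAT3 and PLK3 passed against Namalwa, higher in Raji by 0.55, 0.46 and 0.39, and were at 0.06, 0.14 and -0.29 against Ramos. TP53I3 passed against Namalwa at -0.88 and was at -0.12 against Ramos. EDA2R passed against Ramos at 0.37, and TRIAP1, POLH and ASCC3 passed there at -0.34, -0.68 and -0.57. Against Namalwa these 4 were at 0.07, -0.22, -0.37 and -0.03. The EDA2R call was lost in 10 of 14 alternatives and the TRIAP1 call in 11 of 15, with any 1 of the 4 Raji and Ramos arrays left out among them. The PLK3 call against Namalwa was lost in 10 of 14.

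With the Namalwa empty array left out, Raji was set against the Namalwa miR26a array alone. MDM2, AEN, PMAIP1, TP53INP1, BAX, PHLDA3, PLK3, SESN1, ZMAT3 and XPC no longer passed, each with its sign kept, and the TP53INP1 difference was then -0.21 and that of MDM2 -0.46. PMAIP1, PLK3, SESN1 and XPC did not pass without the Raji miR26a array, and these and PHLDA3 did not without the Namalwa miR26a array. BAX, TP53INP1, PHLDA3, SESN1 and ZMAT3 did not without the Raji empty array. Between Raji and Ramos, POLH, TP53INP1 and PHLDA3 did not pass without the Raji empty array, POLH, TP53INP1 and SESN1 without the Ramos miR26a array, and ASCC3, PHLDA3 and SESN1 without the Ramos empty array. With no moderation of the spread, which leaves each gene 2 residual degrees of freedom, 2 passed against Namalwa and 5 against Ramos, all higher in Raji. Shares of all genes in these refits are not given here, so lost calls are not set apart from those of other genes.

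**Figure D5:**
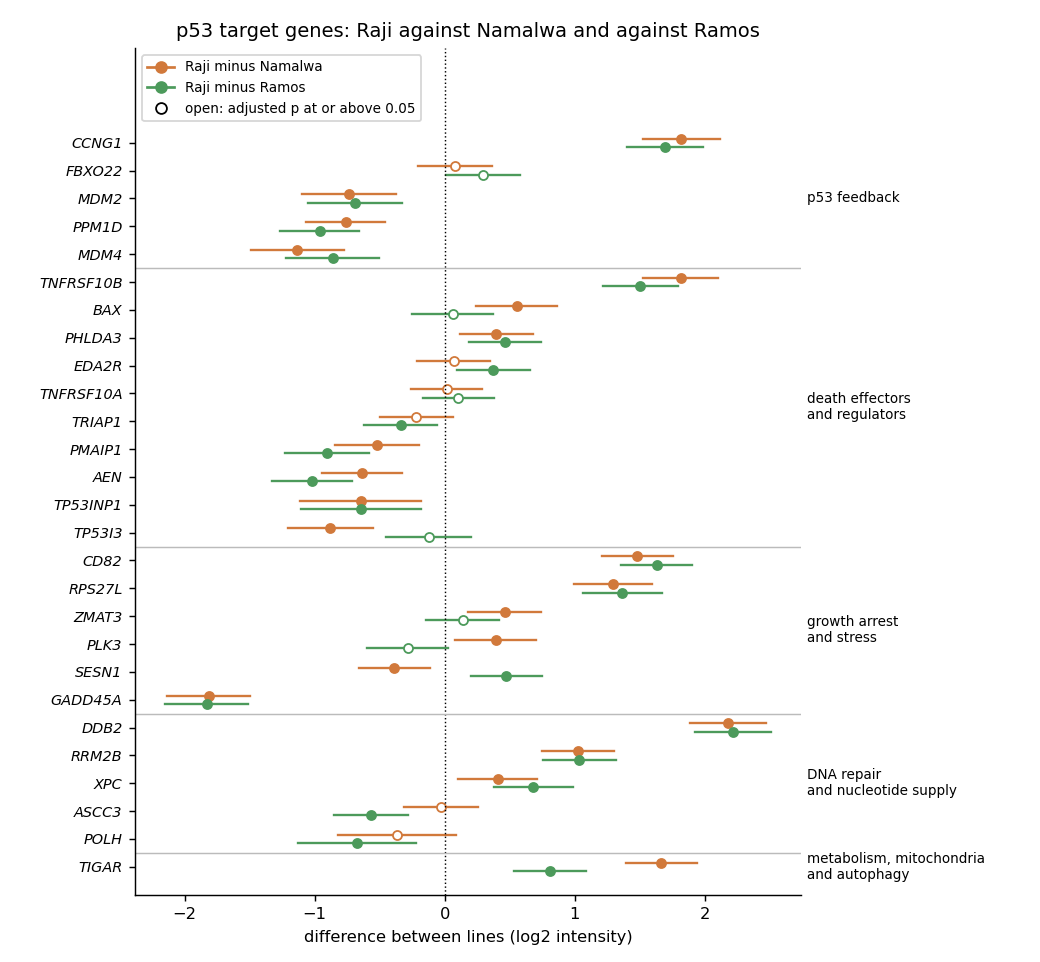
Difference between lines (log2 intensity) of the 27 tested members, grouped by role, for Raji minus Namalwa and Raji minus Ramos, with limma's 95% interval as a line and an open point where the adjusted p was at or above 0.05. DDB2 lies near 2.2 and GADD45A near -1.8 in both comparisons.

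The choice of probe set matters for the feedback genes. With the mean of all probe sets of a gene, MDM4 no longer passed, at -0.21 against Namalwa and -0.11 against Ramos, and neither did MDM2, at -0.18 and -0.12. PPM1D and PHLDA3 no longer passed against Namalwa, at -0.25 and 0.26. In each of these genes, MDM4 and MDM2 included, signal from below the level minimum enters the mean. For MDM2 the probe set used and the next by level gave Raji minus Namalwa differences of -0.74 and -0.48, while another gave 0.79. Of the 13 members with another probe set above the level minimum, all of them shared the sign of the chosen one in 7 for Raji minus Namalwa and in 8 for Raji minus Ramos. CD82, RPS27L and TNFRSF10B were among these in both comparisons, and DDB2, CCNG1, GADD45A, RRM2B and TIGAR have 1 probe set each.

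Namalwa and Ramos were closer to each other in these genes. With limma 6 of 27 passed, 2 higher and 4 lower in Namalwa, where percent called over all genes was 14.7, or 8.09 higher and 6.57 lower. None of the 27 passed at 1 log2 or more, where percent called was 2.83, or 1.69 higher and 1.14 lower. SESN1 was at 7.56 and 7.22 in Namalwa, against 6.71 and 6.34 in Ramos, a difference of 0.86 (limma adjusted p = 0.00164). TP53I3 was higher in Namalwa by 0.76 (limma adjusted p = 0.00796), with the Ramos miR26a array at 5.45 and the Namalwa empty array at 5.67. The lower members were TIGAR at -0.86, PLK3 at -0.68, ASCC3 at -0.54 and BAX at -0.49. GADD45A, DDB2, RRM2B and MDM2, which set Raji apart, were at -0.02, 0.04, 0.01 and 0.05, with 95% intervals within 0.41 of 0. SESN1 and TIGAR were the 2 that passed without the Namalwa miR26a array, without the Ramos empty array or without the group term.

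Of the regulators and partners, 16 of 34 (47.1%) passed between Raji and Namalwa, 4 higher and 12 lower, against 46.1% of all genes. Between Raji and Ramos 20 (58.8%) passed, 5 higher and 15 lower, against 50.5% of all genes. TP53BP2, which steers p53 towards death genes, was lower in Raji, at -2.58 and -2.75, and so was TRIM24, a ubiquitin ligase for p53, at -1.29 and -1.26. KMT5A was at -1.36 against Namalwa and -1.24 against Ramos, and CDKN2A, whose ARF product blocks MDM2, at -1.25 against each. Of the other target genes, 20 of 37 (54.1%) passed in each comparison, with 12 and 13 higher and 8 and 7 lower in Raji, against the same 46.1% and 50.5% of all genes. These shares are near those of all genes. The death receptor FAS was higher by 3.80 and 4.02 and CPEB4, a regulator of polyadenylation, by 3.62 and 3.09. CYFIP2, an actin regulator, was higher by 2.64 and 2.30, and CDKN1A was lower in Raji, at -2.47 and -2.35. Between Namalwa and Ramos, 3 of 34 (8.82%) and 12 of 37 (32.4%) passed, against 14.7% of all genes. SMYD2, DYRK2 and RRN3 were lower in Namalwa, at -0.72, -0.57 and -0.48, as were SESN3 and TRIM22, at -1.82 and -0.94, and IKBIP was higher, at 0.72. The Namalwa arrays lay apart for SESN3, at 4.97 with miR26a and 6.26 with empty, against 7.49 and 7.37 in Ramos.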

How the data were processed

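RNA levels of 6 samples were read on a 1-colour Affymetrix array. The values used are on the log2 scale, as deposited, and the submitters' processing notes name RMA and GCOS for them; no versions are given in the sources used here. RMA corrects background, gives all arrays 1 distribution and summarises probes, so a shift of all RNAs would not be visible, and no detection calls were used. The design text names a filter on varying probe sets, but the deposited table holds all 54675. Nothing was normalised again for the main values.

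Probe sets with several symbols (1801) were not named, and symbols were updated through Entrez IDs with RefSeq of GRCh38.p14 for 41043 of 41097 probe sets. limma (3.58.1, R 4.3.3) was fitted on 12012 genes, with cell line blocked when miR26a was set against empty, and group blocked between lines. P-values were adjusted by Benjamini-Hochberg over all genes, with a threshold of 0.05. The line pairs the arrays by source: deviations from the group means correlated at 0.861 to 0.950 within a line. The fits were also run on simulated data with the same spread for every gene and no difference in RNA quality between arrays. Alternatives covered level minimums, probe set rules, moderation, scaling, blocks, thresholds and leaving out lines or arrays.

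The members and lists were chosen with earlier results of these data known. Text names all members, and of the other lists the 3 genes with the largest change among those that move 1 way in all lines, or pass between lines.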

Additional observations from a re-analysis of the deposited data

Results flagged for a closer look

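TP53INP1 and MDM4 moved in opposite directions in Raji and Namalwa, by at least 0.25 log2 each way. With 1 pair of arrays per line the difference was not tested. Of the 27 tested members 13 had mixed signs over the lines, against 7793 of all 12012 genes. For TP53INP1 the change was 0.50 in Raji and -0.50 in Namalwa, a difference of 0.99. For MDM4 it was 0.26 and -0.34, a difference of 0.60. The MDM4 pattern depends on the probe set: 2 of its 4 probe sets above the level minimum were higher in both lines, at 0.35 in Raji and 0.14 in Namalwa in one and 0.22 and 0.11 in the other. The Namalwa empty array has the larger ACTB gap given above, whose part in both was not tested.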

How the results depend on the processing

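For miR26a minus empty, 0 members passed in the fit with the line as a block and 0 without the replicate block, with the line as a random block, and without Raji, Namalwa or Ramos; with an intensity trend and robust prior 1 passed, ZMAT3. Between Raji and Namalwa 21 passed, 9 with at least 1 log2 as well and 2 with no moderation of the spread, and 11 to 17 when 1 array was left out. Between Raji and Ramos 21 passed, against 50.5% of all genes, and 8 with at least 1 log2, against 15.6%. With no moderation 5 passed, and fewer than 21 passed when 1 array was left out. Between Namalwa and Ramos 6 passed, 0 with at least 1 log2, 0 with no moderation and 2 without the group term, and 2 to 4 when 1 array was left out. With the probe set of highest variance, MDM2 turned to 0.79 for Raji minus Namalwa and 0.49 for Raji minus Ramos, and FBXO22 to -1.01 and -0.66, since other probe sets were then read. Signals near the level minimum limit EDA2R and TP53I3.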
